A study of Rickenella mellea with 14 samples.

Results

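Some genes of the mushroom Rickenella mellea were well expressed in 1 library of a developmental stage and had no reads at all in another library of the same stage. These on-or-off genes were chosen by their read counts alone: a gene model entered the set when it had 0 reads in at least 1 library and at least 20 CPM (reads per 1e6 of the library's total gene reads) in another library of the same group. The rule found 186 of 17139 gene models, which is 1.09% of them. In what follows, a gene is called on in a library at 20 CPM or more, off at 0 reads, and low in between. Because the rule used these counts, the values within a group describe the choice and are given without a test.

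Polyadenylated RNA was sequenced from 14 libraries of 5 groups, all labelled with strain SZMC22713. The mycelium group (3 libraries) was grown on Fries agar, and the other groups were collected in the field. Primordia (3 libraries) were a stage 1 sample about 1 mm tall, replicate 2, and stage 2 samples of 2 to 3 mm, replicates 1 and 3. Young fruiting bodies (3 libraries) were 5 to 15 mm tall, and caps (3 libraries) and stipes (2 libraries, numbered 1 and 4) came from mature fruiting bodies of 20 to 32 mm. No genetic change or drug was part of the design. The labels do not say how many individuals went into a library, nor whether a cap and a stipe came from the same fruiting body, nor how the field samples were assigned to the cultured strain. The flow cells, 2 in all, split the libraries in the same way as growth did, with mycelium on 1 and the field samples on the other, so growth condition, stage and flow cell cannot be told apart between mycelium and the rest.

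Rickenella mellea is an agaric-shaped fungus among the basidiomycetes. In such fungi, hyphae of the mycelium aggregate into a compact primordium, which differentiates into a stipe that raises the cap and a cap that bears the spore-producing surface. Replicate libraries of a stage usually share which genes are transcribed and differ in degree, so a gene that is strongly expressed in 1 replicate and absent from another stands outside that usual pattern. A count of 0 says that no read was assigned to the gene model. In bulk RNA, fewer cells that use a gene and less RNA of it per cell cannot be told apart, and a gene that is silent cannot be told apart from one whose sequence differs from the reference model or is missing from the sampled material.

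Library totals were 13.6 to 18.4 in units of 1e6 reads in mycelium and primordia and 21.5 to 54.6 in the other groups. At these depths 20 CPM corresponded to 271 to 1092 reads, and a count of 0 allowed a level of up to 0.0549 to 0.221 CPM per library, taking 3 reads as the limit and counting error only. Off and on were therefore far apart in every library. Against that limit in the library with 0 reads, the highest library of the group was at least 157-fold higher for the median on-or-off gene in mycelium, at least 287-fold in primordia, at least 380-fold in young fruiting bodies, at least 377-fold in caps and at least 192-fold in stipes. Mycelium supplied 66 of the genes, primordia 58, young fruiting bodies 49, caps 40 and stipes 6. Stipes gave 1 pair of libraries to compare, against 3 in each other group. The order of the groups depended on the setting. After TMM scaling mycelium had 53 and primordia 76. With all libraries thinned to equal depth mycelium had 68, primordia 59, young fruiting bodies 58 and caps 58. Most of them, 159, met the rule in 1 group, 21 met it in 2 groups and 6 in 3 groups.

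Across all 14 libraries, 37.5% of the 2604 values of these genes were 0 reads, 41.4% were low and 21.1% were on. Among the other gene models that reached 20 CPM somewhere, 0.511% of values were 0 reads, 30.5% were low and 69.0% were on. The zeros were spread unevenly over genes: 76 genes had 0 reads in 1 to 3 libraries, 79 in 4 to 9 and 31 in 10 to 13. The map of all 186 genes shows blocks of genes that switch together between libraries.

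**Figure D1:**
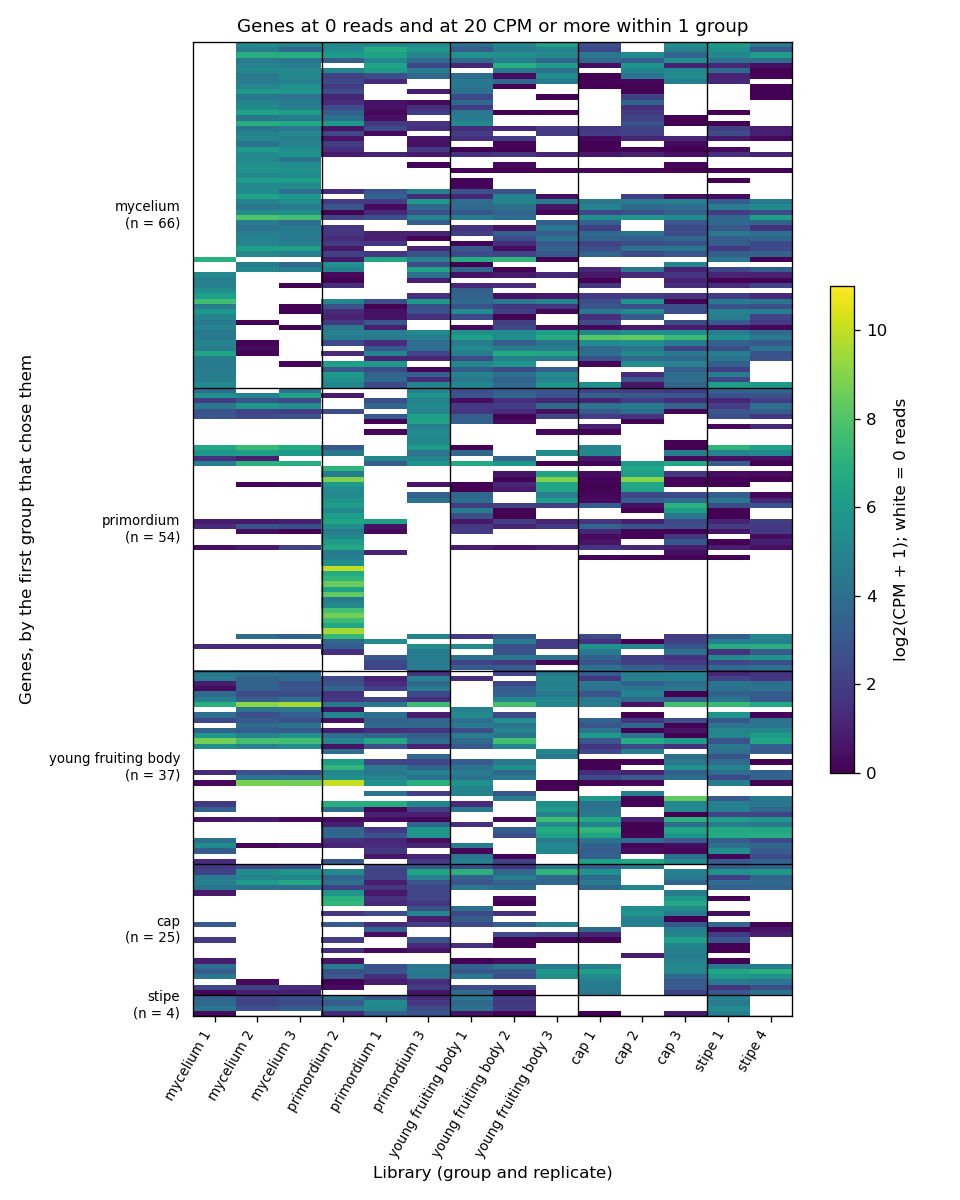
Level of each of the 186 on-or-off genes (rows, blocked by the first group that chose them and ordered by likeness of pattern within a block) in each of the 14 libraries (columns, grouped by stage), as log2(CPM + 1), with 0 reads in white. Mycelium replicate 1 differs in blocks from replicates 2 and 3, and a block of genes is coloured in primordium replicate 2 and nearly nowhere else.

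In mycelium, replicate 1 took 1 side of the contrast in all 66 genes, and replicates 2 and 3 the other. Replicate 1 had 0 reads for 43 of them and was on for 23, and no gene was on in 1 of replicates 2 and 3 and off in the other. In 31 genes replicate 1 was off while both others were on, and in 14 genes replicate 1 was on while both others were off. The rest were low in replicate 2 or in replicate 3. Leaving out replicate 1 removed every mycelium gene, whereas 54 remained without replicate 2 and 57 without replicate 3.

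The 5 highest mycelium genes showed both directions. Model 797152 had 0, 252 and 197 CPM in mycelium replicates 1, 2 and 3. Model 847123 had 0, 117 and 97.1 CPM, and model 787829 had 0, 116 and 114 CPM. All 3 were off in replicate 1 and high, at close levels, in the other replicates. The reverse was seen for model 901179, at 204 CPM in replicate 1 and 0 in replicates 2 and 3, and for model 844413, at 125 CPM in replicate 1 and 0 in both others. Some reads of the first and the fourth of these were shared with other models: 80.9% of the reads of 797152 and 73.5% of those of 901179 were unique to the model, so their levels are less certain.

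Outside mycelium these genes differed from one another. Model 787829 was expressed in every field library, at 11.2 to 83.1 CPM, so its only 0 in the series was in mycelium replicate 1. Model 844413 was on in primordium replicates 1 and 3, at 93.7 and 28.1 CPM, and in young fruiting bodies 1 and 2, at 110 and 149 CPM, but had 0 reads in all 3 caps. Model 847123 reached 62.3 CPM in primordium replicate 2 and 34.9 CPM in young fruiting body 1, and was at 5.94 CPM or lower in the other field libraries. Of the 43 genes off in mycelium replicate 1, 17 were on in some field library and 34 were off in some field library. Of the 23 genes on in replicate 1, 14 were on and 15 were off in some field library.

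In primordia, the stage 1 library, replicate 2, was on for 37 of the 58 genes and off for 15. Replicate 1 was on for 5 and off for 41, and replicate 3 was on for 21 and off for 31. The most frequent pattern, in 25 genes, was on in the stage 1 library and off in both stage 2 libraries. With 1 library of stage 1, this difference has no replicate of its own, and stage and library cannot be told apart within the group. Without replicate 2, 14 primordium genes met the rule, and without replicate 3, 34 did.

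All but 1 of the 5 highest primordium genes had reads in no other library. Model 846645 had 982 CPM (18091 reads) in primordium replicate 2 and 0 reads in the other 13 libraries. Model 844587 had 728 CPM there, 808292 had 409 CPM and 705702 had 369 CPM, each with 0 reads in all other libraries. Divided by gene length, which allows levels to be compared between genes, the deposited RPKM (reads scaled by gene length and by library total) was 859 for 846645, 552 for 808292, 230 for 705702 and 215 for 844587. All reads of these models were unique to them. After TMM scaling the CPM of primordium replicate 2 are 1.57 times as high, which gives 1545 for 846645, 1146 for 844587, 643 for 808292 and 580 for 705702. In all, 14 of the 186 genes had reads in primordium replicate 2 only and 1 in primordium replicate 3 only, and no other library was the only source of reads for any gene.

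The fifth, model 810232, returned in other stages. It had 471 CPM in primordium replicate 2, 469 CPM in young fruiting body 3 and 519 CPM in cap 2. In the other 11 libraries it lay between 0 and 0.146 CPM. It was thus on in 1 library of each of these stages and at or near 0 in the others. After TMM scaling the 3 levels were 741, 439 and 416 CPM, so their order and closeness depend on the scaling.

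In young fruiting bodies each replicate was off for some genes. Of the 49 genes, replicate 1 was off for 18, replicate 2 for 18 and replicate 3 for 21. They were on for 17, 13 and 24, and low for 14, 18 and 4. Replicate 3 differed from replicates 1 and 2 in 28 and 22 genes, whereas replicates 1 and 2 differed in 12. Leaving out a replicate left 22, 28 and 12 genes. The contrast was sharp in the highest genes. Model 797567 had 0, 216 and 32.3 CPM in replicates 1, 2 and 3. Model 795053 had 13, 200 and 0 CPM. Model 793496 had 0, 0.304 and 191 CPM, and model 792996 had 0, 8.70 and 105 CPM. The off library was replicate 1 in 3 of these genes and replicate 3 in 1.

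Model 797567 was high in mycelium, at 125, 533 and 729 CPM, and its only 0 was in young fruiting body 1. It was also low in cap 2, at 0.487 CPM, beside 21.9 CPM in cap 1 and 210 CPM in cap 3. Model 795053 had reads in the other 13 libraries, at 6.18 to 419 CPM. Models 793496 and 792996 went together in the mature fruiting bodies. The first had 102, 0.975 and 129 CPM in caps 1, 2 and 3 and 70.6 and 52.5 CPM in stipes 1 and 4. The second had 150, 0.0305 and 87.9 CPM in caps and 98.5 and 95.2 CPM in stipes. Cap 2 was near 0 for both while the other caps and both stipes were on.

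In caps, replicate 3 was the library most often on, for 25 of the 40 genes, and replicate 2 the one most often off, for 27. Replicate 1 was off for 17 and on for 11. No gene was on in cap 1 and off in cap 3, while 13 were on in cap 3 and off in cap 1. Model 847133 had 0, 0 and 97.6 CPM in caps 1, 2 and 3, and model 790669 had 0.0366, 0 and 77.2 CPM. Model 466271 had 71.5, 0 and 33.1 CPM, and model 810231 had 0.0549, 82.4 and 0 CPM. These cover every cap as the library that was off. Model 582902 had 0, 97.0 and 0 CPM, but none of its reads were unique to it, so its reads may belong to another model. Without cap 1, 26 genes remained, without cap 2, 13, and without cap 3, 18.

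Several cap genes were also on in 1 library of an earlier stage. Model 847133 had 152 CPM in primordium replicate 2, against 1.35 and 2.31 CPM in replicates 1 and 3. Model 810231 had 38.2 CPM in primordium replicate 2 and 88.0 CPM in young fruiting body 3, the same libraries as 810232. Model 466271 had 0 reads in mycelium replicates 2 and 3 but 7.81 CPM in replicate 1, and it was on in stipes 1 and 4, at 92.7 and 124 CPM.

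In stipes, all 6 genes were on in replicate 1 and off in replicate 4, and none went the other way. Model 702855 had 38.2 and 0 CPM, model 809952 29.3 and 0 CPM, model 847075 24.1 and 0 CPM, and model 154595 24.0 and 0 CPM in replicates 1 and 4. Model 797748 had 29.4 and 0 CPM, with 50.8% of its reads unique. These levels were close to the threshold of 20 CPM, unlike the highest genes of the other groups. Models 702855 and 809952 were also at 0 in young fruiting body 3 and in all 3 caps, yet at 1.40 to 30.8 CPM in every mycelium and primordium library and in young fruiting bodies 1 and 2.

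**Figure D2:**
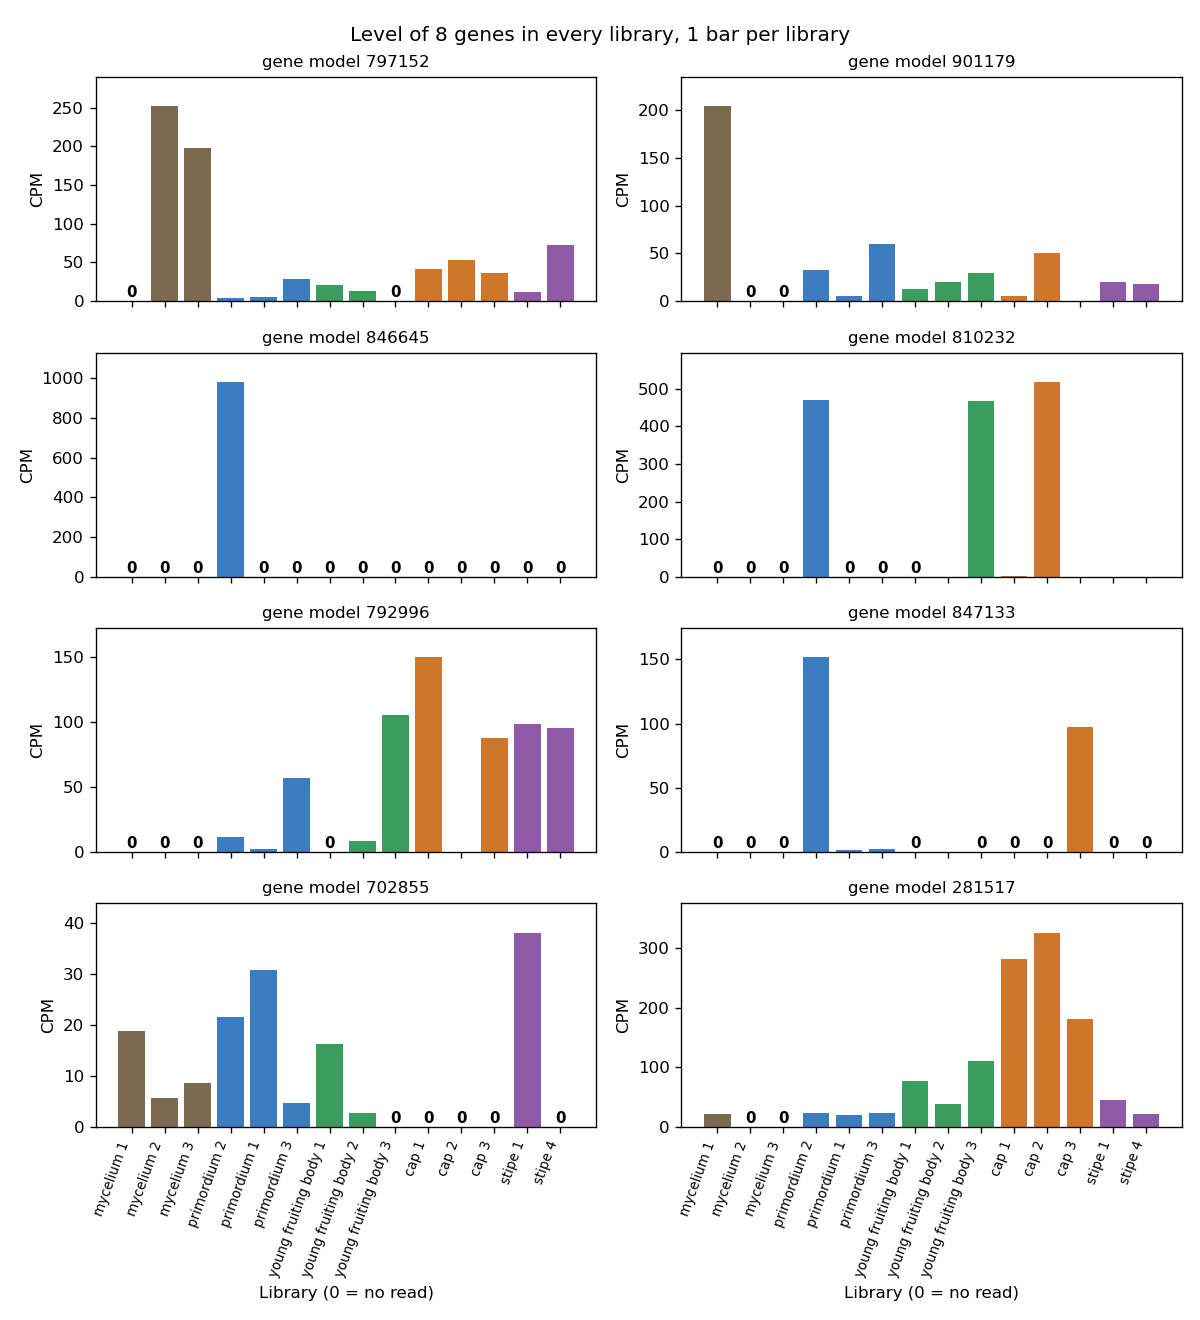
CPM of selected on-or-off genes in each of the 14 libraries (1 bar a library, coloured by group, 0 marks 0 reads and bars too short to see are values above 0 near the axis). Each gene combines libraries at or near 0 with libraries of the same group that are on.

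The threshold cut through a continuous range of levels. Just inside it lay model 735310, with 20.1 CPM as its highest cap, and model 166382, with 20.1 CPM as its highest young fruiting body. Just outside lay model 846899, with 0, 20.0 and 7.47 CPM in mycelium, where the unrounded level of replicate 2 was under 20 CPM, and model 810472, which also missed the rule in mycelium at 20.0 CPM but met it in young fruiting bodies. With a threshold of 10 CPM 355 genes met the rule, and with 50 CPM 58 did.

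The 6 genes chosen in 3 groups showed that the off library changed from gene to gene. Model 847245 was off in primordium replicate 1, young fruiting body 2 and cap 2, and at 12.0 to 71.1 CPM in all other libraries. Model 797704 was off in mycelium replicate 1, young fruiting body 1 and cap 1, and near 0 in stipe 4 at 0.0465 CPM. Model 846912 was on in primordium replicate 2, young fruiting body 1 and cap 3, at 34.5, 24.0 and 70.5 CPM, and at 0.0608 CPM or lower in the other 11 libraries. Model 844686 was on in mycelium replicate 2, primordium replicate 2 and cap 3, at 24.3, 46.2 and 30.7 CPM. Models 797748 and 787405 completed the list, and only 24.7% of the reads of 787405 were unique.

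Genes off in 1 library of a stage were often off in libraries of other stages too. A gene chosen in a second group has a 0 there by the rule itself, so the shares here take only genes chosen in 1 group and set them against models that were on in the same group and chosen in none. Of 55 such mycelium genes, 69.1% had 0 reads in some field library, against 2.37% of the other models. For 42 primordium genes the share with 0 reads in some library of another group was 78.6% against 0.768%. It was 60.6% against 1.19% for 33 young fruiting body genes and 88.0% against 1.98% for 25 cap genes, and all 4 stipe genes had such a 0. Of the mycelium genes, 36.4% were on in some field library, against 91.1% of the other models. Being on in another group was seen for 19.0% of the primordium genes, against 97.8%, for 72.7% of the young fruiting body genes, against 99.3%, and for 48.0% of the cap genes, against 95.1%. A gene of this kind cannot be both off and on within another group, which the choice of genes fixes, and the shares carry no test. Here and in the shares that follow, the other models were not matched for level. The highest CPM of the 186 genes had a median of 41.3, against 91.2 for all models that reached 20 CPM.

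Being chosen in 1 group went with being chosen in another. Of the 40 cap genes 15 were chosen in another group as well, which is 37.5%, against 0.469% of the other models on in caps. The shares were 32.7% against 0.418% for young fruiting bodies, 27.6% against 0.623% for primordia and 16.7% against 0.197% for mycelium. Primordia shared 8 genes with young fruiting bodies and 8 with caps, and young fruiting bodies and caps shared 7. The same rule and the same kind of counts chose the genes in each group, so these shares describe the choice and carry no test.

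Genes that were off in just 1 library form the clearest single absences. There were 37 of them, of which 9 were off in mycelium replicate 1, 6 in young fruiting body 3 and 5 in young fruiting body 1. Only 3 had at least 5 CPM in all 13 other libraries: 787829, 691563 and 795053. Model 691563 had 0 CPM in mycelium replicate 1 and 8.07 to 40.8 CPM elsewhere. Related cases, chosen after their values were seen, were models 281517 and 375117, which were off in mycelium replicates 2 and 3 but above 10 CPM in each of the 12 other libraries. Model 281517 had 22.0 CPM in mycelium replicate 1, 21.2 to 24.2 CPM in primordia, 38.4 to 111 CPM in young fruiting bodies, 181 to 326 CPM in caps and 45.4 and 22.8 CPM in stipes 1 and 4, so it was on in all 12. Model 375117 had 20.9 CPM in mycelium replicate 1 and 12.6 to 74.3 CPM over those 12 libraries.

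Many of the genes fell into sets with like patterns. When genes were grouped by the correlation of their log2(CPM + 1) values over the 14 libraries, average linkage at a correlation of 0.75 gave 10 sets of at least 4 genes, which held 79 of the 186. The sets were formed after the values were seen and are a description. The largest, of 21 genes, was off in mycelium replicate 1 and at 17.4 to 117 CPM in mycelium replicates 2 and 3, and it included 847123. The next, of 20 genes, was on in primordium replicate 2, at 21.8 to 982 CPM, and at 7.05 CPM or lower in all other libraries; 846645, 844587, 808292 and 705702 belonged to it.

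Smaller sets tied libraries of different stages together. A set of 6 genes, with 847133 and 735310, was on in primordium replicate 2 and in cap 3, at 34.5 to 152 CPM and 20.1 to 130 CPM. A set of 4 genes, with 810231 and 810232, was on in primordium replicate 2, young fruiting body 3 and cap 2, and at most 2.41 CPM elsewhere. A set of 4 genes, with 792996, 792997 and 793496, was on in young fruiting body 3, cap 1 and both stipes, and at most 0.975 CPM in mycelium and cap 2. In a set of 5 genes, with 466271, mycelium replicates 2 and 3 were off and cap 2 was at 0.487 CPM or lower, whereas mycelium replicate 1 ranged from 7.81 to 37.7 CPM. A further set of 4 genes, with 702855, 809952 and 701590, was at 0.139 CPM or lower in young fruiting body 3, in all caps and in stipe 4, but at 21.3 to 51.5 CPM in stipe 1. A set of 5 genes was on in primordium replicate 3, at 23.2 to 79.5 CPM, and under 10 CPM in every other library, where the highest value was 9.73 CPM.

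Among the on-or-off genes, models with close identifier numbers often had like patterns. In all, 11 pairs of the on-or-off genes had identifier numbers at most 2 apart, their median correlation was 0.992, and 9 of the 11 exceeded 0.75. Among all 17205 pairs of the 186 genes the median correlation was 0.00463 and 3.07% exceeded 0.75. The pairs 792996 and 792997, and 810231 and 810232, are examples. In the pairs 810541 and 810543, 846645 and 846647, and 846647 and 846648, both models had reads in primordium replicate 2 only. That fixes their correlation at 1, and model 846647 was counted in 2 of these pairs. Models that the rule did not choose were left out, and the correlations use the counts of the rule, so they are a description with no test. The identifier does not give a position on the genome, so whether such pairs are neighbours there was not tested.

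The same contrast, 0 reads in 1 library and at least 20 CPM in the other, was then counted for all gene models in each of the 91 pairs of libraries, most of which lie between groups and were not used by the rule. Pairs of the same field group differed in 6 to 44 genes, with a median of 20 over 10 pairs. Pairs from different field groups differed in 0 to 93 genes, with a median of 22 over 45 pairs. These pooled ranges hold unlike pairs of stages. Primordium and cap libraries differed in 38 to 93 genes over 9 pairs, against 14 to 44 within primordia and 13 to 26 within caps. Young fruiting body and cap libraries differed in 9 to 27 genes over 9 pairs, with 12 to 28 within young fruiting bodies, and cap and stipe libraries in 0 to 27 over 6 pairs. Mycelium against field libraries gave 32 to 142 genes, with a median of 55 over 33 pairs. This range was also mixed: 64 to 142 against primordia, 32 to 76 against young fruiting bodies, 34 to 62 against caps and 39 to 61 against stipes. Within mycelium the 3 pairs gave 0 to 57. The pairs share libraries, so the counts are a description with no test.

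Exactly 2 of the 91 pairs had no such gene, and the other 89 had 6 to 142. One was mycelium replicates 2 and 3, whereas mycelium replicate 1 differed from them in 57 and 54 genes. The other was cap 1 and stipe 4, which belong to different groups. By contrast, stipe 4 differed from stipe 1 in 6 genes, and cap 1 differed from caps 2 and 3 in 18 and 13.

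The pair of cap 1 and stipe 4 was looked at in detail after this count was seen. Of 7672 models on in cap 1, the lowest count in stipe 4 was 10 reads, and of 6841 models on in stipe 4, the lowest count in cap 1 was 8 reads. Among the 186 genes, 61 were off in cap 1 and 66 in stipe 4, with 55 off in both. The highest level in stipe 4 of a gene off in cap 1 was 0.139 CPM, and the highest in cap 1 of a gene off in stipe 4 was 0.128 CPM. In levels over all genes, however, the 2 libraries were less alike than libraries of the same tissue: their Spearman correlation across genes was 0.918, against 0.958 and 0.962 of cap 1 with the other caps and 0.977 between the stipes. Cap 1 and stipe 4 thus shared most of the on-or-off genes that were off, while levels over all genes were less alike. Such an overlap was also seen between the stipes, where 44 of the 186 genes were off in stipe 1, 66 in stipe 4 and 40 in both. Whether they came from the same fruiting body is not given in the labels and was not tested.

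**Figure D3:**
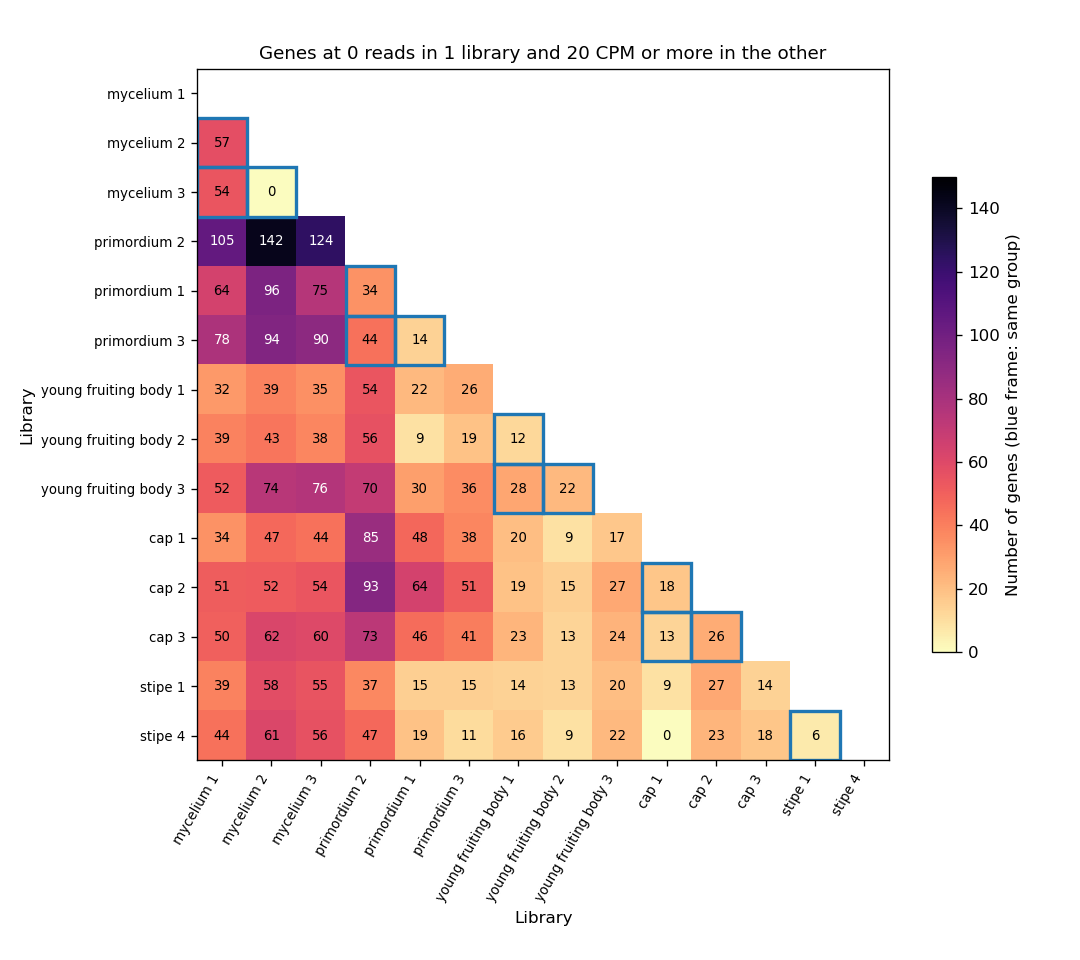
Number of gene models with 0 reads in 1 library and at least 20 CPM in the other, for each of the 91 pairs of the 14 libraries. The pairs of mycelium replicates 2 and 3 and of cap 1 and stipe 4 are at 0, and mycelium replicate 1 differs from the other mycelium libraries in 57 and 54 genes.

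The 2 pairs were recounted under other settings. With all libraries thinned to equal depth both pairs stayed at 0 and the lowest of the other pairs was 7. Counted at up to 3 reads in place of 0, both were again at 0 and the lowest other pair was 11. At 10 CPM cap 1 and stipe 4 were at 0 and mycelium replicates 2 and 3 at 1, with 12 as the lowest of the others. At 50 CPM the pair of stipes also reached 0, so the contrast with other pairs is not seen at that threshold.

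The number of on-or-off genes off in a library ran from 44, in primordium replicate 2 and stipe 1, to 109, in mycelium replicate 1. The number on ran from 21, in primordium replicate 1, to 62, in primordium replicate 2. Primordium replicate 2 therefore had the most genes on and, with stipe 1, the fewest off. The same libraries chose these genes, so the counts describe the choice. Of the 62 on in primordium replicate 2, 37 were primordium genes. Of the 109 off in mycelium replicate 1, 43 were mycelium genes. The share of all reads unique to 1 model differed little, at 99.29% to 99.45% per library.

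**Figure D4:**
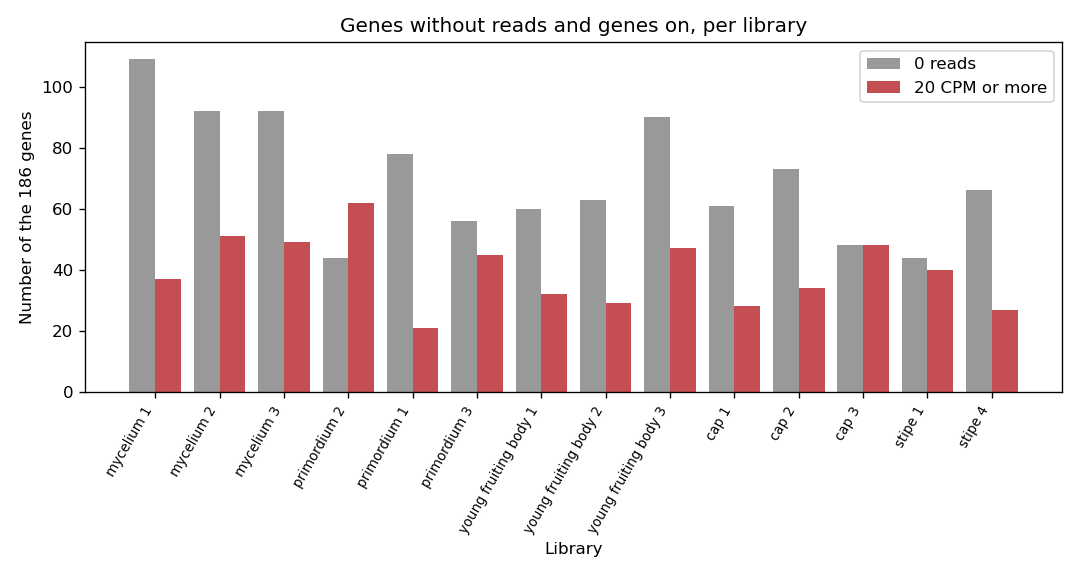
Number of the 186 on-or-off genes with 0 reads (grey bars) and with at least 20 CPM (red bars) in each of the 14 libraries. Off genes range from 44 to 109 and on genes from 21 to 62. The same libraries chose the genes, so the counts describe the choice.

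The on-or-off genes resembled other models in size. Their median length was 1101 bases, against 1138 for all models. Their highest CPM had a median of 41.3, against 91.2 for all models that reached 20 CPM, the 186 included. The median share of unique reads was 100% in both, but 25 of the 186, or 13.4%, had under 90% unique reads, against 3.70% of all models with reads, and 8 had under 10%. The level of these 25 genes depends on how reads shared with other models were assigned. On unique reads alone the rule found 168 genes, of which 166 were among the 186. The deposited log2 matrix held 151 of the 186, and for 581 of their values with 0 reads it gave log2 values of -9.06 to -2.70, so a gene with no reads is not marked as such there.

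Between stages, the counts below take only genes that the rule had chosen in neither of the groups compared. For the others the rule fixes the spread within those groups. The fit uses 1 spread per gene over all 14 libraries, so the group that chose a gene still widens it. The quasi-likelihood test of edgeR was fitted to all genes and all libraries, and calls required a change of 2-fold or more and a p, adjusted by Benjamini-Hochberg over all genes, under 0.05. From mycelium to primordium, 10 of 65 tested genes rose and 0 fell, against 20.1% of all 15559 tested genes that rose and 23.6% that fell. The share that rose, 15.4%, was below that background. The median log2 change was 1.73, against -0.15 for all genes. Each of these genes was chosen through an on level in a young fruiting body, cap or stipe library, which is field material like the primordia. Neither the direction of the calls nor the median is therefore free of the choice. Without mycelium replicate 2 or replicate 3 no gene was called, and without mycelium replicate 1 or primordium replicate 2 5 were called. Calls over all genes were 5938 and 5986 without mycelium replicates 2 and 3, against 6813 in the main fit. They were 6700 without mycelium replicate 1 and 6561 without primordium replicate 2.

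The 2 genes with the smallest adjusted p in that comparison were 792997 and 880528. Model 792997 had 0 reads in all 3 mycelium libraries and 12.2, 6.05 and 55.0 CPM in primordium replicates 2, 1 and 3. The primordium mean of 24.4 ± 26.7 CPM (SD, n = 3) was at least 110-fold higher than the limit of 3 reads per library, with an edgeR adjusted p of 0.0218. Model 880528 had 2.65, 0 and 0 CPM in mycelium and 113, 114 and 31.6 CPM in primordia, a log2 change of 7.53 ± 2.45 (SE) with an edgeR adjusted p of 0.0227. The groups did not overlap in either gene.

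From primordium to young fruiting body, 0 of 87 tested genes rose and 5 fell, against 20.5% and 13.1% of all genes. The median log2 change was 0.13, against 0.24. Model 810502, with 82.4% unique reads, had 1.68, 0 and 2.52 CPM in primordium replicates 2, 1 and 3 and 0.0224, 0.0304 and 0 CPM in young fruiting bodies. Its groups overlapped because of the 0 in primordium replicate 1, although the log2 change of -6.49 ± 2.15 (SE) was called at an edgeR adjusted p of 0.0304. Model 842880 had 0.0543, 0.785 and 1.61 CPM in primordia and 0 in young fruiting bodies, so that the primordium mean was at least 8.95-fold higher than the limit of 3 reads per library, with an edgeR adjusted p of 0.0306. Without young fruiting body 1, 2 or 3 no gene was called, without primordium replicate 2 1 was called, and without primordium replicate 3 3 were. Calls over all genes were 4289, 5161 and 4549 without young fruiting bodies 1, 2 and 3, against 5237 in the main fit. They were 5113 and 5666 without primordium replicates 2 and 3.

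From young fruiting body to cap, edgeR called 0 of 86 tested genes, against 1.34% of all genes that rose and 1.77% that fell. An unadjusted p under 0.05 was found for 7 genes, and the share over all genes was not counted. DESeq2 called 5 of the 86, of which 14 had no adjusted p, against 1133 of all 15559 tested genes. The median log2 change was -0.31, against -0.02. From young fruiting body to stipe, 2 of 114 tested genes rose and 0 fell, against 1.61% and 5.48% of all genes. Those were 842880 and 792822. Model 842880 was at 0 in all young fruiting bodies and at 22.0 and 17.1 CPM in stipes 1 and 4, at least 214-fold higher than the limit of 3 reads per library, with an edgeR adjusted p of 0.0273. Model 792822 had 0.0448, 0 and 0 CPM in young fruiting bodies and 146 and 82.4 CPM in stipes, a log2 change of 12.28 ± 3.17 (SE) with an edgeR adjusted p of 0.0362. Neither was called when any 1 young fruiting body was left out. Calls over all genes were then 333, 1176 and 837 without young fruiting bodies 1, 2 and 3, against 1104. Leaving out a stipe left 1 library in that group, so only the log2 change is given. Without stipes 1 and 4 it was 11.89 and 12.25 for 842880, and 11.87 and 12.61 for 792822.

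Between cap and stipe, 0 of 122 tested genes were higher in cap and 1 was lower, against 7.15% and 5.41% of all genes. This was 701590, with 0, 0.0305 and 0 CPM in caps and 51.5 and 0.139 CPM in stipes 1 and 4. Its log2 difference was -11.08 ± 3.02 (SE) with an edgeR adjusted p of 0.0292, and the 2 stipes themselves differed widely. The 0.139 CPM in stipe 4 was 3 reads, the limit set for a 0. With up to 3 reads counted as off, the rule chooses this gene in stipes, so the call is not free of the choice. Model 701590 was not called when any 1 cap was left out. Calls over all genes were then 1617, 1356 and 1293 without caps 1, 2 and 3, against 1954. With 1 stipe left, its log2 difference was -3.62 without stipe 1 and -12.09 without stipe 4, so its size rested on stipe 1. The median log2 difference was -0.04, against 0.00.

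In all 5 comparisons the share called was below or close to that of all genes. The spread of the on-or-off genes was wide: their median dispersion in the fit was 2.82, against 0.162 for all tested genes. That spread includes the group that chose each gene, so the rule itself makes it wide. The low shares called are therefore not free of the choice. Of the 186 genes 167 passed the filter on low counts, and those that passed did so on the libraries in which they were on, so the counts above are not a statement about all 186.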

How the data were processed

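Per the file headers, the authors deposited, for each of 14 libraries, whole-number counts of total and unique reads for 17139 gene models, gene lengths and RPKM values. A matrix of log2 values deposited for the whole series was compared with the counts and entered no test. Tools named in the submitters' processing notes were edgeR 3.4.2, limma 3.18.13 and R 3.0.2. The mapper is not given in the sources used here, nor is the build. The library kit named in the labels' protocols does not mark the strand. CPM were computed here from total reads per library, without TMM scaling unless stated. The TMM factors of mycelium, 1.14 to 1.35, exceeded those of primordia, 0.572 to 0.786, so 20 CPM is not the same scaled level in both.

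Library totals ran from 13.6 to 54.6 in units of 1e6 reads, and a count of 0 was given the upper limit of 3 reads, for counting error only. Between-group tests used edgeR 4.0.16 in R 4.3.3, with TMM scaling, filterByExpr, all 14 libraries in 1 quasi-likelihood fit and Benjamini-Hochberg adjustment over 15559 genes. Standard errors were obtained from the log2 change and the F statistic. The labels do not say how many individuals gave the libraries, so the spread behind each p-value is that between these samples and may be technical. Alternatives were DESeq2 1.42.0, other scalings, filters and thresholds, unique reads, equal depth, fits of 2 groups, a replicate block and each library left out. The rule and the tests were run on simulated data with planted genes, as a check of the computation only. The counts simulated for the rule left no zeros apart from the planted ones. Those simulated for the tests varied less between libraries than the on-or-off genes. How the rule and the tests behave for such genes was therefore not checked.

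The genes, the lists and the comparisons were chosen with earlier results of these data known. Genes named are, in each group, the 5 with the highest CPM, those chosen in 3 groups, up to 2 called in each direction with the smallest adjusted p in each comparison, and 2 on either side of the threshold. Genes named outside that rule were chosen after their values were seen. Product names are not paired with the models in the files used, and no annotation was used here, so lists by product name could not be applied and models are given by identifier number.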

Additional observations from a re-analysis of the deposited data

Results flagged for a closer look

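The filter on low counts kept 19 of the 186 on-or-off genes out of the between-group tests, although each had at least 20 CPM in 1 library. Of these, 15 had their highest level in primordium replicate 2. Reads in a single library only were found for 15, of which 14 had them in primordium replicate 2 and 1 in primordium replicate 3. The highest was model 846645, with 18091 reads, or 982 CPM, in primordium replicate 2 and 0 reads in the other 13 libraries. All 19 lie in data that the comparisons between groups do not use, which is why they are listed.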

How the results depend on the processing

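The thresholds set how many genes were found. At 10 CPM there were 139 in mycelium, 96 in primordia, 93 in young fruiting bodies, 96 in caps, 12 in stipes and 355 in all. At 50 CPM there were 15, 29, 10, 8, 0 and 58. With up to 3 reads counted as off, caps had 62 and stipes 13. Leaving out 1 library gave 0 to 57 mycelium genes, 14 to 44 primordium genes, 12 to 28 young fruiting body genes, 13 to 26 cap genes, 0 to 0 stipe genes, where 1 library was left, and 131 to 182 in all. Of the 186, 165 were shared with the 180 found after TMM scaling and 183 with the 205 found at equal depth. In tests between groups, called genes from primordium to young fruiting body fell to 2 under the replicate block. DESeq2 called 5 from young fruiting body to cap, 5 to stipe and 5 between cap and stipe. Over all genes DESeq2 called 1133, 1879 and 2757 there, against 485, 1104 and 1954 in the main fit. A fit of only cap and stipe called 7, with 2835 calls over all genes. Leaving out 1 library gave 0 to 9 calls from mycelium to primordium, with 5938 to 7105 calls over all genes. From primordium to young fruiting body it gave 0 to 4, with 4289 to 5666 over all genes. In the other comparisons it gave 0 calls, fits with 1 stipe left not counted. The cause of these shifts was not tested. In all, 39 of 64 other counts of genes and 37 of 61 other counts of calls were within 1.5 times the reported value. Of 82 alternatives for named log2 changes 51 kept the call, 31 lost it and 0 reversed, with adjusted p from 6.35e-06 to 0.636. From mycelium to primordium, scaling by library size alone moved the median log2 change of all genes from -0.15 to -1.02, and 9 genes rose and 2 fell. Same-numbered libraries had deviations correlated at -0.13 to 0.04 from mycelium to primordium, primordium to young fruiting body and young fruiting body to cap. Such values cannot tell whether the samples were paired, and the stipe comparisons were not checked. Under the block 7 genes were called from mycelium to primordium and 0 from young fruiting body to cap. No paired analysis was possible for the stipe comparisons because they share 1 number. Depth limits a 0 to under 0.0549 to 0.221 CPM.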
